A study of Homo sapiens with 12 samples.

Results

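Genes that move thyroid hormone across the cell membrane, convert it or bind it in the cytosol were examined in SW1736, a cell line established from anaplastic thyroid cancer. The 8 genes were taken by symbol from the 56832 symbols of the count files. They were the transporters SLC7A5, SLC7A8 and SLC16A10, the transporter subunit SLC3A2, the deiodinases DIO1, DIO2 and DIO3, and the hormone-binding protein CRYM. All 8 were present in the files. Each of the 12 RNA sequencing libraries came from cells carrying pCDH-TRB, a construct for stable expression of thyroid hormone receptor beta (called TRB), or from cells with the empty vector pCDH-EV (called EV). All cells were first kept for 24 h in medium without phenol red and with charcoal-stripped serum, which holds little hormone. Either triiodothyronine (T3) at 10 nM or the vehicle, sodium hydroxide, was then given for 24 h. This gave 4 groups of 3 libraries: EV with vehicle, EV with T3, TRB with vehicle and TRB with T3. The receptor came from a vector and all cells from a single line. The labels do not say whether replicates were separate cultures, so p-values measure only the spread between these libraries, which may be technical.

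Thyroid hormone enters cells through membrane carriers. LAT1, encoded by SLC7A5, and LAT2, encoded by SLC7A8, exchange large neutral amino acids and also carry iodothyronines, and each needs the heavy chain 4F2hc, encoded by SLC3A2, to reach the surface. SLC16A10 encodes MCT10, a carrier of aromatic amino acids and of T3. Inside the cell, the deiodinases remove iodine from the hormone. DIO2 makes T3 from thyroxine, DIO3 inactivates both hormones, and DIO1, a gene classically induced by T3, can do either. CRYM encodes mu-crystallin, which binds T3 in the cytosol.

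The deiodinases are selenoproteins: a TGA codon, normally a stop, is read as selenocysteine in the active site. The coding sequence around that codon is shown because it is the shared catalytic feature of the 3 deiodinases, all of which had few or no reads here in most groups. Each run holds 63 bases from the GENCODE release 29 transcripts, 5′ to 3′, with the TGA in capitals.
DIO1: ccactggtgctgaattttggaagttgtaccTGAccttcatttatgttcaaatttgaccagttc
DIO2: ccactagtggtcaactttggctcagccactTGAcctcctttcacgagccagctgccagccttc
DIO3: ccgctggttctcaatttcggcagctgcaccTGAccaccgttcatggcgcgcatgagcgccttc
On GRCh38 the TGA lies at chr1:53904704-53904706 on the plus strand in DIO1, at chr14:80203112-80203114 on the minus strand in DIO2 and at chr14:101562004-101562006 on the plus strand in DIO3. The DIO3 window matched that of DIO1 and that of DIO2 at 61.9% of bases each, and the DIO1 and DIO2 windows matched at 55.6%.

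Start regions were searched in the 250 bases before each RefSeq start (GRCh38.p14), where 7 of the 8 genes had an entry and CRYM had none. The motifs were AGGTCA, the core sequence bound by thyroid hormone receptors, its direct repeat (AGGTCA, 4 bases of any kind, AGGTCA), and TGATGNAA, a form of the amino acid response element, on both strands. AGGTCA, which is also part of each direct repeat, was present in 12.1% of 35116 such windows, the direct repeat in 0.0142% and TGATGNAA in 3.14%. SLC7A8, SLC3A2 and DIO2 had more windows than the other genes. Some windows lay partly in the gene's own exons, up to 144 of 250 bases for DIO3. Among all windows of the 7 genes, 1 match was found, an AGGTCA on the minus strand of the DIO1 window, 105 bases before the start. That window, chr1:53893937-53894186 on the plus strand, is shown with the match in capitals as it reads on the printed strand, beside the window of SLC7A5, chr16:87869508-87869757 on the minus strand, the most abundant of the 8 genes, which held none of the motifs.
DIO1: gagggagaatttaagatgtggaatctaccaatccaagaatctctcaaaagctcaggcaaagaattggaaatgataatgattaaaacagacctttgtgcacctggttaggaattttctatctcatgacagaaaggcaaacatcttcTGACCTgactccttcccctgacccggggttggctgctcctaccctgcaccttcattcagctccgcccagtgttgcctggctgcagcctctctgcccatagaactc
SLC7A5: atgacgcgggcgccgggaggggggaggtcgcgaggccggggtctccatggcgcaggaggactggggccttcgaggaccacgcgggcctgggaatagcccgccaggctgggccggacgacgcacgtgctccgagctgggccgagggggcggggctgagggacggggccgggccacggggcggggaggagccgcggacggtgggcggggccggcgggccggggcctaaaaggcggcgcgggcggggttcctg
A match is a description of these letters and not a bound site. The SLC7A5 window was 79.6% G and C, and the DIO1 window 47.6%.

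Counts within genes ranged from 3819306 to 13086717 per library, with a median of 9443892.5. The supplied receptor gene THRB stood at 12.3 to 18.2 CPM (counts scaled to library size, with TMM factors) in the 6 EV libraries, at 79.6 to 80.2 in TRB with vehicle and at 190 to 321 in TRB with T3. KLF9, a gene known to respond to T3, was at 7.91 to 14.5 CPM in the vehicle libraries and at 104 to 257 in the T3 libraries. TRB with T3 replicate 2 stood apart. Its difference in log2 CPM from the mean of replicates 1 and 3 followed the GC content of 12130 genes with a Spearman rho of -0.886, given as a description across genes of the same libraries. The genes described here lay along that trend, from 37.6% GC and a difference of 0.90 for SLC16A10 to 61.1% GC and -3.35 for SLC7A5. The fold changes that the results turn on are therefore given for all 12 libraries and for the 11 others. Of 4 leukocyte markers 1 passed 1 CPM, the monocyte gene CD14, whose level in TRB with T3 was 9.21 (replicate 1) and 9.72 CPM (replicate 3), against at most 2.27 in the other libraries, while CD3E was at 0 in every library. The summed leukocyte markers were at 0.180 to 9.85 CPM in TRB with T3 and 0.406 to 0.516 in TRB with vehicle. Of 3 mesenchymal markers 2 passed 1 CPM and CDH2 was at 0; their sum, mostly FN1, was 147.6 to 302.4 CPM in TRB with T3, 10.1 to 10.9 in TRB with vehicle, 66.2 to 74.5 in EV with T3 and 14.95 to 17.5 in EV with vehicle. The 5 epithelial markers all passed 1 CPM, with sums of 2024 to 5003 CPM. Of 8 thyroid follicular markers 3 passed 1 CPM in any library, and TSHR and FOXE1 were at 0 in all of them; their sum was 1.44 to 5.47 CPM in TRB with T3, 8.46 to 11.1 in TRB with vehicle, 6.62 to 7.58 in EV with T3 and 7.15 to 8.90 in EV with vehicle. Of 4 fibroblast markers 1 passed 1 CPM, and COL1A2, COL3A1 and PDGFRA were at 0. The fibroblast sum was 1.44 to 14.8 CPM in TRB with T3, 25.1 to 27.7 in TRB with vehicle, 17.0 to 33.1 in EV with T3 and 16.9 to 20.4 in EV with vehicle. None of 3 endothelial and 2 parafollicular markers passed 1 CPM. The part of these markers in the results was not tested.

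**Figure D1:**
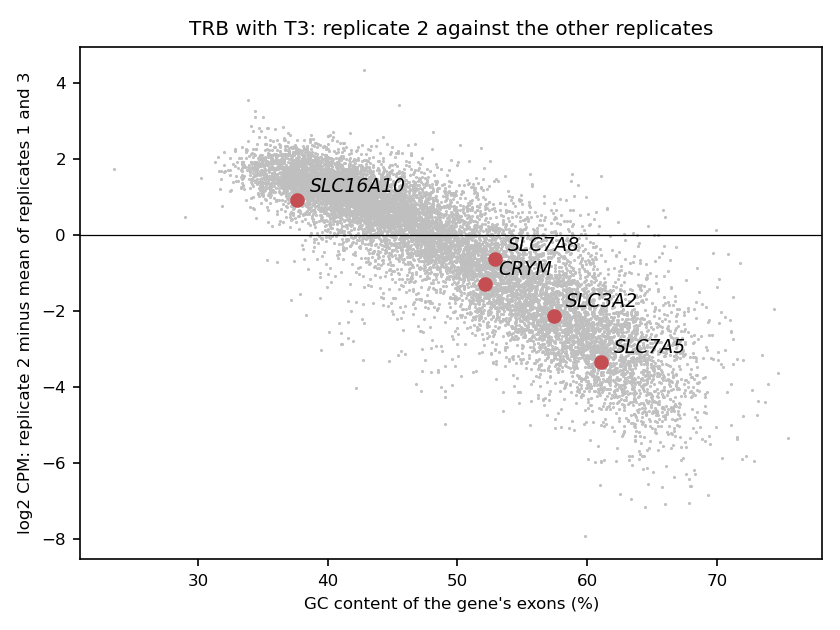
Difference in log2 CPM between TRB with T3 replicate 2 and the mean of replicates 1 and 3 (vertical) against GC content in percent (horizontal). GC content is that of each gene's longest transcript, labelled as exons on the axis. Grey points are genes, and marked points are the 5 genes described here that were tested in all 12 libraries. The difference falls with GC content, and SLC7A5 (61.1% GC) lies at -3.35, SLC16A10 (37.6% GC) at 0.90.

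Per kilobase of annotated exon, SLC7A5 was the most abundant of the 8 genes in EV cells with vehicle, at 119 ± 11.1 CPM per kb (SD, n = 3). SLC3A2 followed at 46.6 ± 3.03 CPM per kb. The next levels were far lower, at 0.484 ± 0.0394 for SLC16A10, 0.388 ± 0.129 for CRYM and 0.287 ± 0.202 for SLC7A8, and these 3 did not differ beyond their spread. DIO3 was at 0.0619 ± 0.0358 CPM per kb, DIO2 at 0.00726 as a mean of 3 libraries of which 1 had reads, and DIO1 had none. In TRB cells with T3 the order changed below the leading pair. SLC7A5 was at 27.8 ± 21.0 and SLC3A2 at 16.6 ± 10.0 CPM per kb, which overlapped with replicate 2 and stood apart without it, at 39.8 ± 4.92 and 22.4 ± 0.644 (SD, n = 2). DIO3 at 1.48 ± 1.27, SLC7A8 at 1.43 ± 0.439 and CRYM at 1.36 ± 0.605 lay within each other's spread. SLC16A10, at 0.407 ± 0.175, was below SLC7A8 and CRYM, while the spread of DIO3 reached its level. Exon length here is that of all annotated isoforms joined, so these levels hold only for comparison at that length.

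**Figure D2:**
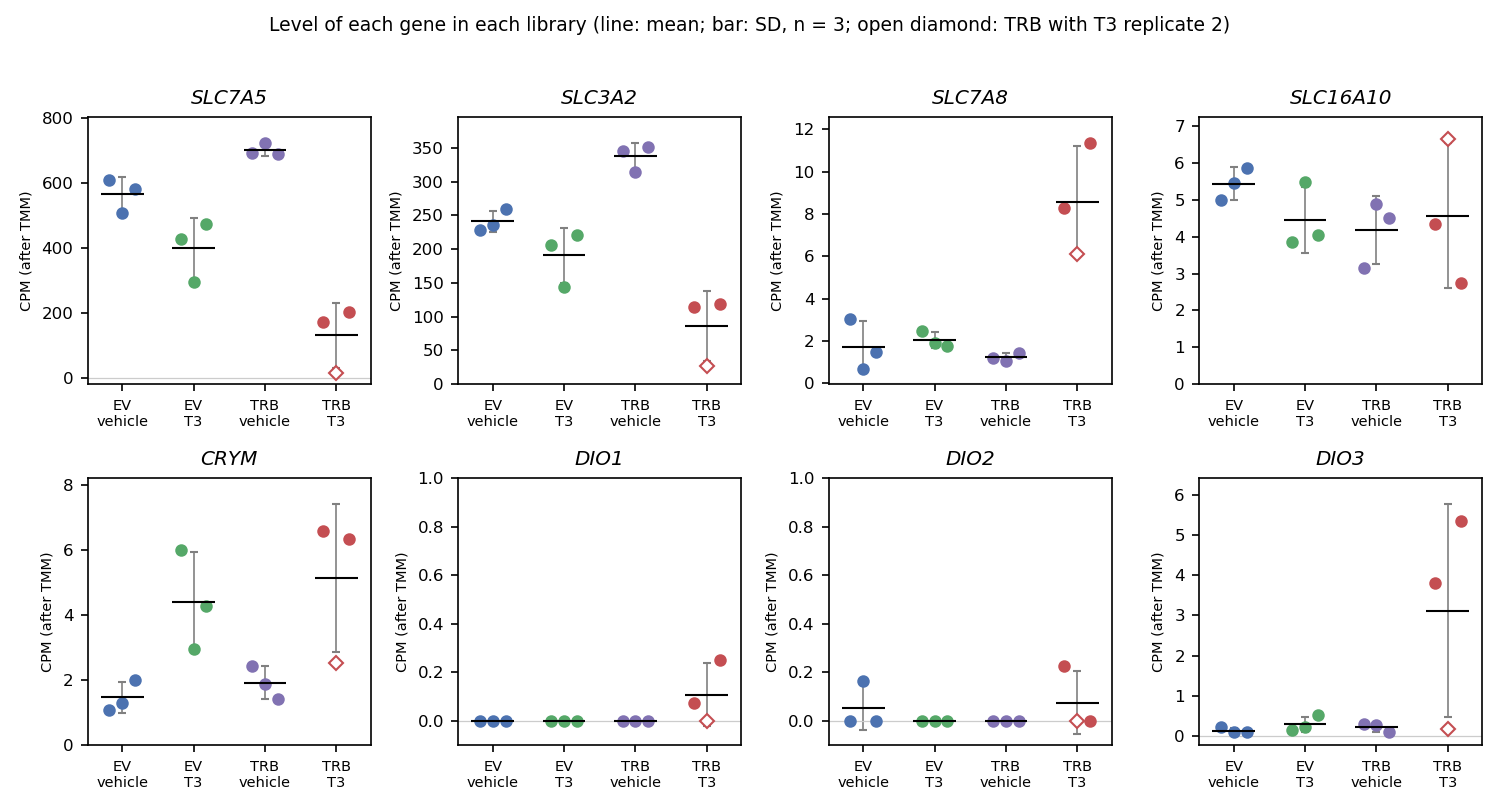
CPM after TMM scaling (vertical, linear, one scale per panel) of the 8 genes in each library of the 4 groups, with the mean (line) and SD (bar, n = 3), and TRB with T3 replicate 2 as an open diamond. SLC7A5 and SLC3A2 are lowest and SLC7A8 highest in all 3 TRB with T3 libraries, while DIO1 and DIO2 stay under 1 CPM everywhere.

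DIO1 and DIO2 were near zero, meaning that every library was under 1 CPM, and DIO3 was under 1 CPM in 10 of 12 libraries. DIO1 had 3 counts in all, 1 in TRB with T3 replicate 1 and 2 in replicate 3, and none in the other 10 libraries. Its 3 counts give 0.111 CPM over that group, with an exact 95% Poisson interval of 0.0230 to 0.325. A count of 0 over a group, with 3 counts as the limit, allows up to 0.108 CPM for EV with vehicle, up to 0.150 for EV with T3 and up to 0.0897 for TRB with vehicle. DIO2 had 5 counts, 2 in EV with vehicle replicate 2 and 3 in TRB with T3 replicate 1, or 0.0720 (0.00872 to 0.260) and 0.111 (0.0230 to 0.325) CPM over those groups. No fold was formed for either gene, and a difference was not detectable at this depth. The DIO1 exons lie within chr1:53891239-53911086 and those of DIO2 within chr14:80197527-80387757, where 70 exon bases of DIO2 also belong to the antisense gene DIO2-AS1. These intervals and limits cover counting error only.

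The response to T3 in cells with supplied receptor was the question of the comparison of TRB with T3 and TRB with vehicle. Both parts of the LAT1 transporter, SLC7A5 and SLC3A2, fell, while the LAT2 gene SLC7A8 and CRYM rose. SLC16A10 did not pass. Of the 5 members tested in the fit of 12 libraries, 4 passed an edgeR adjusted p of 0.05, against 14.7% of 14431 genes. The 2 that rose compare with 8.54% of all genes, and the 2 that fell with 6.2%. Without TRB with T3 replicate 2, the same 4 of these 5 genes passed, against 33.3% of 14825 genes, with 18.1% of all genes higher and 15.2% lower. DIO3 entered that fit only through the group in which it was high, so it is left out of the counts with 11 libraries and described by its reads. Fewer expressing cells and less RNA per cell cannot be told apart in these bulk samples.

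SLC7A5 (ENSG00000103257.8, chr16:87830023-87869488, minus strand) was at 693, 723 and 689 CPM in TRB with vehicle and at 172, 18.3 and 205 in TRB with T3. All 3 T3 libraries lay below all 3 vehicle libraries, and replicate 2 lay far below the other T3 libraries. SLC7A5 fell by 2.41 in log2 units (edgeR adjusted p = 0.0262, SE 0.625), and by 1.85 without replicate 2 (edgeR adjusted p = 4.73e-06, SE 0.175). Its call in the fit of 12 libraries was lost without any 1 of the TRB with vehicle libraries (edgeR adjusted p of 0.0765, 0.0739 and 0.0719 without replicates 1, 2 and 3), without TRB with T3 replicate 1 (0.0502) and when the compared groups were fitted alone (0.200). With offsets that take out each library's GC trend SLC7A5 fell by 2.16 (edgeR adjusted p = 2.00e-05, SE 0.231). Those offsets moved the median of all genes to -0.144, and the calls over all genes from 1233 higher and 895 lower to 1722 higher and 2612 lower. Of the SLC7A5 exons, 271 bases also belong to the antisense gene AC126696.2. Reads of the copy SLC7A5P2, 96.3% identical over 536 bases, were at 0 in every library.

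SLC3A2 (ENSG00000168003.16, chr11:62856102-62888875, plus strand), the heavy chain that partners both LAT1 and LAT2, was at 346, 315 and 351 CPM in TRB with vehicle. With T3 it was at 114, 26.2 and 119 CPM. Again the groups did not overlap and replicate 2 was the lowest library. SLC3A2 fell by 1.97 in log2 units (edgeR adjusted p = 0.0123, SE 0.439) with 12 libraries and fell by 1.49 (edgeR adjusted p = 8.87e-06, SE 0.152) with 11. SLC3A2 kept its call without any 1 library, and lost it when the compared groups were fitted alone (edgeR adjusted p = 0.144). In TRB with vehicle there were 2.28 ± 0.198 (SD, n = 3) CPM per kb of SLC7A5 for each of SLC3A2, against 0.762 to 1.89 in the TRB with T3 libraries, the lowest in replicate 2.

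SLC7A8 (ENSG00000092068.19, chr14:23125295-23183674, minus strand) encodes the sister light chain LAT2, whose coding sequence is 62.8% identical to that of SLC7A5. It was at 1.22, 1.03 and 1.42 CPM in TRB with vehicle and at 8.31, 6.11 and 11.3 CPM with T3. All T3 libraries lay above all vehicle libraries, replicate 2 included. SLC7A8 rose by 2.80 in log2 units (edgeR adjusted p = 0.00146, SE 0.429), and by 3.02 (edgeR adjusted p = 2.62e-05, SE 0.348) with 11 libraries. This was the one member whose call for T3 in TRB cells was kept under every alternative tried. Per kilobase, SLC7A5 exceeded SLC7A8 738 ± 137 times in TRB with vehicle and 3.79 to 26.2 times in TRB with T3.

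CRYM (ENSG00000103316.10, chr16:21238874-21303083, minus strand) was at 2.43, 1.89 and 1.42 CPM in TRB with vehicle and at 6.59, 2.51 and 6.36 CPM with T3. The groups did not overlap, although T3 replicate 2 lay only just above the highest vehicle library. CRYM rose by 1.46 (edgeR adjusted p = 0.0340, SE 0.403) with 12 libraries and by 1.82 (edgeR adjusted p = 0.000397, SE 0.291) with 11. The call with 12 libraries was lost without any 1 of 8 libraries (TRB with T3 replicate 1 or 3, EV with T3 replicate 3, EV with vehicle replicate 1 or 2, and each of TRB with vehicle), with edgeR adjusted p of 0.0504 to 0.141, and in a fit of the compared groups only (0.165). CRYM overlaps ANKS4B and CRYM-AS1 on the other strand, but shares no exon bases with them.

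DIO3 (ENSG00000197406.7, chr14:101561351-101563452, plus strand) had 3, 3 and 1 counts in TRB with vehicle and 51, 1 and 43 in TRB with T3. Replicates 1 and 3 were high, and replicate 2 was as low as the vehicle libraries. The groups thus overlapped with all 12 libraries, where the gene failed the count filter and was not tested. From the summed counts the ratio of T3 to vehicle was 16.8, with an exact 95% counting interval of 7.86 to 43.0, and 21.0 (9.80 to 53.7) without replicate 2. These intervals cover counting error and not the spread between replicates. Its longest transcript holds 60.8% G and C, which is in the range where replicate 2 was lowest. Whether GC content accounts for its low count in replicate 2 was not tested. DIO3OS, a noncoding RNA next to DIO3 on the other strand (chr14:101552221-101560431), had 6, 2 and 2 counts with vehicle and 91, 3 and 79 with T3. Their reads are uncertain where counting ignored strand, as the strand setting is not given in the sources used here.

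SLC16A10 (ENSG00000112394.16, chr6:111087503-111231194, plus strand) was at 3.14, 4.90 and 4.52 CPM in TRB with vehicle and at 4.34, 6.64 and 2.74 CPM with T3, and the groups overlapped. The log2 fold change was 0.10 (edgeR adjusted p = 0.841, SE 0.308) with 12 libraries and -0.16 (edgeR adjusted p = 0.685, SE 0.257) with 11. Its highest TRB with T3 library was replicate 2, the reverse of the GC-rich genes. An antisense gene, AL360227.1, shares 177 exon bases with SLC16A10.

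**Figure D3:**
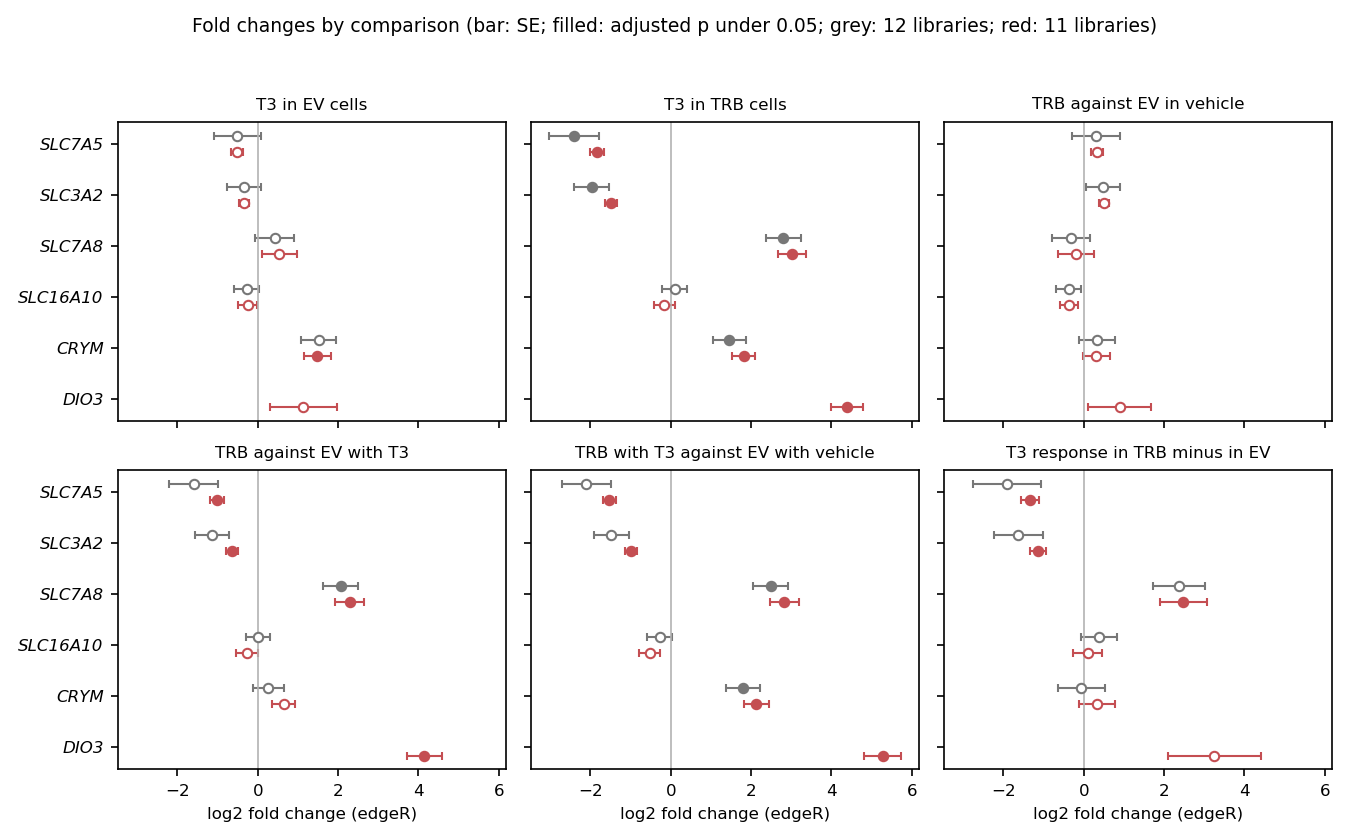
Log2 fold change with SE (horizontal) of 6 genes in 6 comparisons, in grey for the fit of 12 libraries and in red for the fit without TRB with T3 replicate 2, with filled points for an edgeR adjusted p under 0.05. SLC7A5 and SLC3A2 lie left of 0 and SLC7A8, CRYM and DIO3 right of 0 for T3 in TRB cells, and DIO3 has a value only with 11 libraries, where it entered through the group in which it was high.

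In EV cells, which have only their own receptors, T3 was compared with vehicle in the same way. None of the 5 genes tested with 12 libraries passed in edgeR, 1 had an unadjusted p under 0.05, and 0.229% of all genes passed. DESeq2 also called 0. With 11 libraries 1 of these 5 passed, CRYM, against 7.33% of all genes. CRYM also had the largest fold change of the 5 with 12 libraries. SLC7A5 and SLC3A2 were below vehicle in every T3 library, and the share of all genes separated in this way was not counted.

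CRYM was at 1.08, 1.31 and 2.02 CPM in EV with vehicle and at 6.01, 2.95 and 4.29 CPM in EV with T3, with no overlap. Its log2 fold change was 1.52 (edgeR adjusted p = 0.356, SE 0.435) with 12 libraries and 1.49 (edgeR adjusted p = 0.0197, SE 0.325) with 11. The size of the change was nearly equal in both fits and the shared spread was not.

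SLC7A5 was at 610, 509 and 581 CPM in EV with vehicle and at 429, 296 and 473 CPM with T3. The log2 fold change of SLC7A5 was -0.51 with 12 libraries (edgeR adjusted p = 0.937, SE 0.595) and with 11 (edgeR adjusted p = 0.0544, SE 0.147). SLC3A2 was at 229, 236 and 259 CPM with vehicle and at 207, 144 and 221 CPM with T3, with -0.34 (edgeR adjusted p = 0.939, SE 0.424) with 12 libraries and -0.35 (edgeR adjusted p = 0.113, SE 0.130) with 11. Neither gene overlapped between the groups, and EV with T3 replicate 2 was the lowest library for both. That library deviated from its group mean together with TRB with T3 replicate 2 (correlation across genes 0.728). It was kept in the fit of 11 libraries. The part of this deviation in the fold changes was not tested. With GC offsets and 11 libraries both passed, SLC7A5 at -0.79 (edgeR adjusted p = 6.48e-07) and SLC3A2 at -0.59 (edgeR adjusted p = 4.84e-05). That fit called 17.7% of all genes.

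SLC7A8 was at 3.03, 0.653 and 1.47 CPM in EV with vehicle and at 2.46, 1.90 and 1.77 CPM in EV with T3, and the groups overlapped. SLC16A10 was at 4.99, 5.47 and 5.87 CPM with vehicle and at 3.85, 5.48 and 4.04 CPM with T3, also overlapping. DIO3 had 1 count in each EV with vehicle library and 1, 2 and 2 counts in the EV with T3 libraries, so no fold was formed.

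Whether the T3 response differed between TRB and EV cells was tested by the difference of the responses. With 11 libraries SLC7A5 and SLC3A2 fell further, and SLC7A8 rose further, in TRB than in EV cells, and CRYM did not pass. With 12 libraries, edgeR called 0 of 5 members, 3 had an unadjusted p under 0.05, and 2.59% of all genes passed. DESeq2 called 1 member, and 6.34% of all genes. With 11 libraries 3 of these 5 passed, against 15.2% of all genes. The difference (TRB minus EV, log2) was -1.33 for SLC7A5 (edgeR adjusted p = 0.00185, SE 0.223) and -1.15 for SLC3A2 (edgeR adjusted p = 0.00223, SE 0.197). For SLC7A8 it was 2.48 (edgeR adjusted p = 0.0129, SE 0.580), and the gene also passed in the fit without EV with vehicle replicate 2 (2.83, edgeR adjusted p = 0.0466). With 12 libraries the values for SLC7A5, SLC3A2 and SLC7A8 were -1.90, -1.63 and 2.38, with edgeR adjusted p of 0.245, 0.192 and 0.0886. With GC offsets on 12 libraries they were -1.38, -1.17 and 2.52, with edgeR adjusted p of 0.0150, 0.00632 and 0.0138, where 11.4% of all genes passed. The difference for CRYM was 0.33 (edgeR adjusted p = 0.655, SE 0.449) with 11 libraries and -0.060 with 12, and its sign changed without any 1 of 5 libraries.

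**Figure D4:**
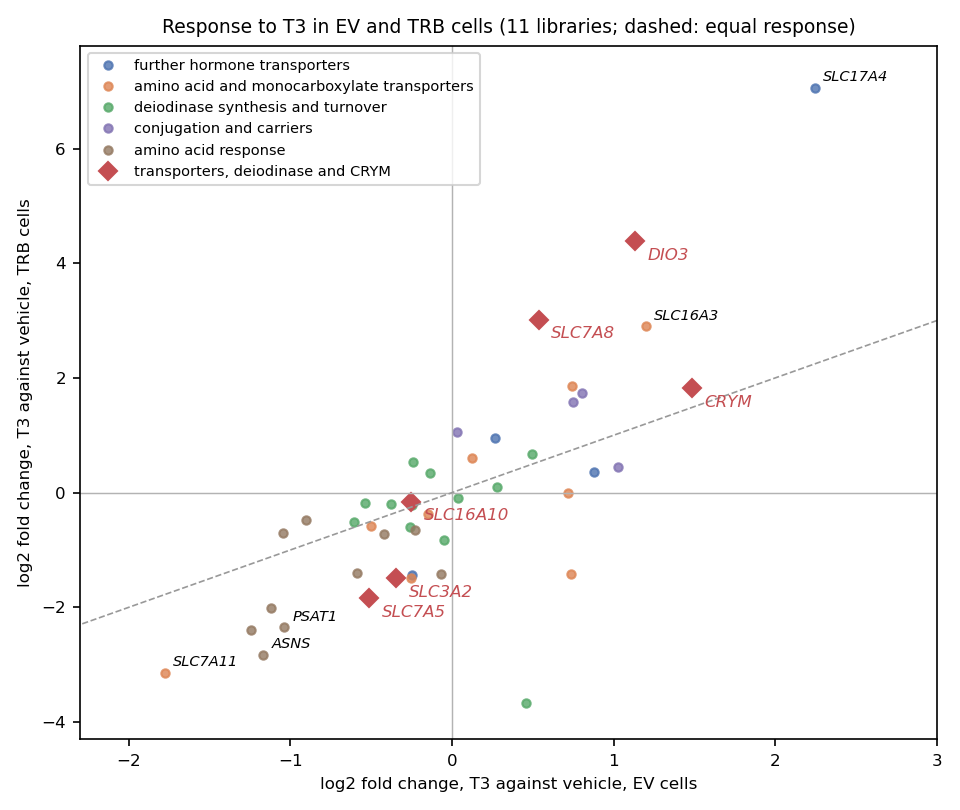
Log2 fold change of T3 against vehicle in EV cells (horizontal) and in TRB cells (vertical), fit of 11 libraries, for the 6 genes tested (red diamonds) and the tested genes of 5 related lists (circles), with a dashed line for equal responses. CRYM lies near the dashed line at 1.49 and 1.82, and SLC7A8 lies well above it at 0.54 and 3.02.

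The receptor without hormone was examined by comparing TRB with EV cells in vehicle. Both LAT1 genes were slightly higher in every TRB library, and no gene of the 8 passed. With 12 libraries edgeR called 0 of 5 members, 0 had an unadjusted p under 0.05, and 0.0208% of all genes passed, and DESeq2 called 0. With 11 libraries 0 of these 5 passed, 2 had an unadjusted p under 0.05, and 0.0742% of all genes passed. The log2 difference with 11 libraries was 0.50 (edgeR adjusted p = 0.267, SE 0.129) for SLC3A2 and 0.32 (edgeR adjusted p = 0.399, SE 0.146) for SLC7A5, and with 12 it was 0.48 and 0.31 (edgeR adjusted p of 1.00 for both). Fitted on these groups alone, which vary little, both passed, SLC3A2 at 0.51 (edgeR adjusted p = 0.0113) and SLC7A5 at 0.33 (edgeR adjusted p = 0.0316). That fit called 11.2% of all 14008 genes tested. SLC16A10 was lower in every TRB with vehicle library than in every EV with vehicle library, at -0.38 (edgeR adjusted p = 1.00, SE 0.304) with 12 libraries and -0.36 (edgeR adjusted p = 0.430, SE 0.223) with 11.

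Under T3, TRB cells were compared with EV cells. SLC7A8 rose with the receptor, at 2.06 in log2 units (edgeR adjusted p = 0.0175, SE 0.429). It was the 1 called of 5 with 12 libraries, against 6.68% of all genes, and all 3 TRB libraries lay above all 3 EV libraries. Its call was lost without EV with T3 replicate 1, 2 or 3 (edgeR adjusted p of 0.0681, 0.0718 and 0.0778) and with the compared groups alone (0.0925). With 11 libraries 3 of these 5 passed, against 19.7% of all genes: SLC7A8 at 2.29 (edgeR adjusted p = 0.000637, SE 0.356), SLC7A5 at -1.01 (edgeR adjusted p = 0.00108, SE 0.170) and SLC3A2 at -0.65 (edgeR adjusted p = 0.00806, SE 0.148). With 12 libraries SLC7A5 was at -1.59 (edgeR adjusted p = 0.144, SE 0.609) and SLC3A2 at -1.14 (edgeR adjusted p = 0.139, SE 0.430). CRYM was at 0.27 (edgeR adjusted p = 0.652, SE 0.395) with 12 libraries and 0.65 (edgeR adjusted p = 0.141, SE 0.284) with 11. The summed counts of DIO3 gave a ratio of 14.1 (5.82 to 44.3) with 12 libraries and 17.5 (7.25 to 55.2) with 11, with replicate 2 of TRB with T3 at the level of EV with T3.

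The last comparison set TRB with T3 against EV with vehicle and shares those libraries with the others. SLC7A8 rose by 2.49 (edgeR adjusted p = 0.00422, SE 0.436) and CRYM by 1.79 (edgeR adjusted p = 0.0206, SE 0.423), 2 of 5 members against 10.6% of all genes. SLC7A5 was at -2.10 (edgeR adjusted p = 0.0556) and SLC3A2 at -1.48 (edgeR adjusted p = 0.0538). With the replicate block both passed, SLC7A5 at -2.33 (edgeR adjusted p = 0.0423) and SLC3A2 at -1.64 (edgeR adjusted p = 0.0302), where 10.7% of all genes passed. In a fit of the compared groups only, 0 of 5 passed, with edgeR adjusted p of 0.107 for SLC7A8 and 0.132 for CRYM, where 385 genes in all were called. CRYM lost its call without replicate 1 or 3 of TRB with T3 and without replicate 1 or 2 of EV with vehicle (edgeR adjusted p of 0.0656, 0.0545, 0.0775 and 0.0969). With 11 libraries 4 of these 5 passed, against 33.7% of all genes: SLC7A8 (2.82) and CRYM (2.13) higher, SLC7A5 (-1.52) and SLC3A2 (-0.99) lower. The ratio for DIO3 from summed counts was 32.6 (10.8 to 161) with 12 libraries and 40.7 (13.5 to 201) with 11.

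Of 11 further carriers of thyroid hormone, 4 were abundant enough to be tested, and 7 were not. With T3 in TRB cells and 12 libraries SLCO3A1 rose, SLCO4A1 fell and SLCO2B1 did not pass, where 8.54% of all genes rose and 6.2% fell. The remaining gene tested, SLC17A4, is left out of this comparison. SLC17A4, a carrier of organic anions and thyroid hormone, had 1, 0 and 1 counts in TRB with vehicle and 134, 80 and 71 in TRB with T3. Each T3 library was high, replicate 2 included, and the gene passed the count filter only through that group, so its rise is described by its reads. The ratio of summed counts was 177 (48.5 to 1467), and 160 (43.8 to 1332) without replicate 2. In EV cells SLC17A4 had 3, 1 and 1 counts with vehicle and 7, 7 and 4 with T3, a ratio of 5.02 (1.79 to 17.3). The intervals for SLC17A4 cover counting error and not the spread between replicates, so the EV counts are a description only. SLCO3A1, an organic anion transporter, rose by 0.79 (edgeR adjusted p = 0.0470), and by 0.96 with 11 libraries. SLCO4A1, of the same family, fell by 1.98 (edgeR adjusted p = 0.0419), and fell by 1.44 with 11 libraries.

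Among 12 amino acid and monocarboxylate transporters, 9 were tested. With T3 in TRB cells, 3 fell and none rose with 12 libraries, against 6.2% of all genes lower and 8.54% higher. With 11 libraries 4 fell and 3 rose, against 15.2% and 18.1% of all genes, and the median was -0.38 against -0.011 for all genes. With GC offsets on 12 libraries 5 fell and 2 rose, where 2612 of 12130 genes fell and 1722 rose. SLC7A11, the light chain of the cystine exchanger that also needs SLC3A2, was at 214, 311 and 302 CPM in TRB with vehicle and at 33.0, 77.4 and 27.2 CPM with T3. SLC7A11 fell by 2.59 (edgeR adjusted p = 0.00204, SE 0.420), and fell by 3.14 with 11 libraries. SLC43A1, encoding the leucine carrier LAT3, fell by 2.02 (edgeR adjusted p = 0.0291), and fell by 1.49 with 11 libraries. SLC3A1, the heavy chain of a different exchanger, fell by 1.60 (edgeR adjusted p = 0.00956), and fell by 1.42 with 11. Of the 3 that rose with 11 libraries, the lactate exporter SLC16A3 was at 2.91 and SLC43A2, encoding LAT4, at 1.86. With 12 libraries SLC43A2 was at 1.31 (edgeR adjusted p = 0.159) and SLC16A3 at 2.31 (edgeR adjusted p = 0.0774). Replicate 2 had 8.98 CPM of SLC16A3, against 188 and 218 in the other TRB with T3 libraries.

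Genes of the amino acid response, a stress pathway run by the factor ATF4, of which SLC7A5 and SLC3A2 are known targets, fell with T3 in TRB cells in 6 of 10 cases with 12 libraries, against 6.2% of all genes. With 11 libraries 10 of 10 fell, against 15.2% of all genes, with a median of -1.41 against -0.011 for all genes. With GC offsets on 12 libraries 10 of 10 fell as well, where 2612 of 12130 genes fell. ASNS, which makes asparagine, was at 17.4, 19.4 and 21.4 CPM in TRB with vehicle and at 2.92, 3.77 and 2.24 CPM with T3. ASNS fell by 2.71 (edgeR adjusted p = 2.87e-05, SE 0.225), and fell by 2.83 with 11 libraries. PSAT1, an enzyme of serine synthesis, fell by 2.16 (edgeR adjusted p = 5.04e-05) and TRIB3, a pseudokinase induced by ATF4, by 2.89 (edgeR adjusted p = 0.00372). CHAC1, which degrades glutathione, fell by 2.41 (edgeR adjusted p = 0.00416). With 11 libraries PSAT1 fell by 2.35, TRIB3 fell by 2.39 and CHAC1 fell by 2.01. In EV cells 0 of 10 passed with 12 libraries, against 0.229% of all genes. DESeq2 called 3, against 1.05% of all genes, and GC offsets called 6, against 2.19%. With 11 libraries 8 of 10 fell, against 7.33% of all genes called either way. ASNS in EV cells was at -1.20 (edgeR adjusted p = 0.0612) with 12 libraries and fell by 1.17 (edgeR adjusted p = 0.00123) with 11.

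Of 12 genes for the synthesis and turnover of deiodinases, 0 of 11 tested passed with T3 in TRB cells in edgeR with 12 libraries, against 14.7% of all genes. DESeq2 called 3, against 17.5% of all genes. GC offsets on 12 libraries called 2 higher and 4 lower, where 1722 of 12130 genes were higher and 2612 lower. With 11 libraries 3 of 12 rose and 3 fell, against 18.1% and 15.2% of all genes, with a median of -0.20 against -0.011 for all genes. EEFSEC, the elongation factor that delivers selenocysteine, rose by 0.67 (edgeR adjusted p = 0.00365) with 11 libraries and was at 0.17 (edgeR adjusted p = 0.816) with 12. PSTK, a kinase in selenocysteine synthesis, fell by 0.83 (edgeR adjusted p = 0.00990) with 11 libraries and was at -0.40 (edgeR adjusted p = 0.405) with 12. IYD, the iodotyrosine deiodinase, had 6, 14 and 6 counts in TRB with vehicle and 0, 1 and 1 with T3, a ratio of 0.0954 (0.0110 to 0.381). Of 12 conjugating enzymes and plasma carriers, 4 were tested, and 2 rose with 12 libraries, against 8.54% of all genes, with a median of 1.22 against 0.0068 for all genes. UGT1A1, which glucuronidates thyroxine, rose by 1.82 (edgeR adjusted p = 0.000550), and UGT1A6 rose too (edgeR adjusted p = 0.000317); with 11 libraries the values were 1.58 and 1.73. UGT1A genes share exons. Reads there may have been set aside as ambiguous, and the way they were assigned is not given in the sources used here. With 11 libraries SULT1A1, a phenol sulfotransferase, rose by 1.05 as well (edgeR adjusted p = 0.000328), and with 12 it was at 0.73 (edgeR adjusted p = 0.107).

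The genes whose pattern lay closest to each member were listed by Pearson correlation of log2 CPM over 11 libraries, as a description, among 10094 or 10095 genes whose mean log2 CPM was 3 or more. These libraries share the 4 groups, so any gene that responds to T3 alike scores high. For SLC7A5 they were ACTG1 (0.996), ITGB4 (0.994) and TRIM47 (0.992), and 346 genes were over 0.9. For SLC3A2 they were PCK2 (0.990), GPT2 (0.988) and CDC25B (0.987). SLC7A8 was closest to C1QTNF1 (0.961), PGAM1 (0.958) and MNT (0.958), and CRYM to CDK5 (0.964), ATP6V1E1 (0.964) and ALS2CL (0.958). SLC16A10 was closest to USP10 (0.942), GEMIN6 (0.903) and CHRNA5 (0.897), and 2 genes were over 0.9. With replicate 2 included, MNT with SLC7A8 dropped to 0.0210 and CDK5 with CRYM to 0.493.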

How the data were processed

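Raw counts per gene symbol were deposited by the authors for each of 12 libraries, with closing lines for reads assigned to no gene. Per the submitters' processing notes, CASAVA 1.7, STAR 2.7, HTSeq 0.10, DESeq2 and the build hg38 were used, with no role or order given; annotation release and strand setting are not given in the sources used here. Those lines entered neither library sizes nor tests; per file, 19.03% to 91.95% of reads did not align uniquely, 2.14% to 24.4% fell in no gene and 0.258% to 1.81% were ambiguous. The authors' table of normalized values was not used here.

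Tests used edgeR 4.0.16 under R 4.3.3 (filterByExpr, minimum count 10 and minimum total 15; TMM; quasi-likelihood test, two-sided, Benjamini-Hochberg over all genes, threshold 0.05). All 12 libraries shared 1 model with a coefficient for each group and 6 contrasts. The biological coefficient of variation was 0.329 with 12 libraries and 0.131 without TRB with T3 replicate 2. Where a group held 3 counts or fewer per library, ratios of summed counts with exact 95% intervals are given, since a fitted fold there depends on the prior count and is no bound. Each such interval covers counting error only. The procedure was run on simulated data drawn with the spread of the 11 libraries and with no library that followed GC content. It therefore does not bear on how replicate 2 affects the fit of 12 libraries. Alternatives were RLE size factors, no count filter, DESeq2 1.42.0, limma 3.58.1 voom with quality weights, the compared groups alone, a prior count of 2, a replicate block, GC offsets (spline with 5 degrees of freedom, 12130 genes with a value in GENCODE release 29) and leaving out each library. GC offsets with the compared groups alone were added after seeing the data. Same-numbered libraries of TRB with T3 and EV with vehicle deviated together from their group means (correlations 0.275, 0.501 and 0.155), so the blocked value stands beside that comparison. Differently numbered libraries did so too for replicate 3 with replicate 1 (0.295) and replicate 1 with replicate 3 (0.149), and the rest were at -0.5 to -0.157. These values do not establish a pairing. No 2 libraries agreed within sampling noise (chi-square per degree of freedom of 2.85 or more within groups).

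Of the 8 genes, 5 passed the count filter with 12 libraries and 6 with 11. All are named. Of each related list, at most 4 genes per comparison that passed with 12 or with 11 libraries are named, by largest absolute log2 fold change. The 3 genes most like each member are named by Pearson correlation. Members, lists and rules were chosen with earlier results of these data known. Coordinates and exon lengths come from GENCODE 29 (GRCh38), where 29503 symbols of the files matched. Some items of the lists are not reported here.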

Additional observations from a re-analysis of the deposited data

Results flagged for a closer look

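The T3 response differed between TRB and EV cells by the test of the difference itself for 3 of the genes described, in the fit of 11 libraries. The difference (TRB minus EV, log2, edgeR) was -1.33 for SLC7A5, 2.48 for SLC7A8 and -1.15 for SLC3A2. With 12 libraries none of these 3 passed in edgeR, where all 3 had an unadjusted p under 0.05 and DESeq2 called SLC7A8. Among the related lists the difference passed with 12 libraries for ASNS (-1.51, edgeR adjusted p = 0.0277) and SLC3A1 (-2.29, edgeR adjusted p = 0.0294). SLC17A4 had a fitted difference of 5.02, but it passed the count filter only through TRB with T3, where it was high, and its test is not used. With 11 libraries the difference passed for SLCO4A1 among the further carriers, with SLC17A4 left out. It also passed for 6 of 9 amino acid and monocarboxylate transporters, 1 of 12 genes for deiodinase synthesis and turnover, 3 of 4 for conjugation and carriers and 5 of 10 of the amino acid response, against 15.2% of all genes. In SLC3A1, EV cells were at 1.30 to 1.93 CPM with vehicle and 1.52 to 3.06 with T3, while TRB cells were at 1.89 to 2.84 and 0.539 to 0.997.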

How the results depend on the processing

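Counts of the 8 genes that passed were recomputed under each alternative, and the share of all genes called stands in brackets. For T3 in EV cells (0 with 12 libraries, 0.229% of all genes) they were 5 with limma-voom (44.5%). They were 3 with GC offsets, both without TRB with T3 replicate 2 (17.7%) and with the compared groups alone (13.8%). Leaving out 1 library gave 0 to 1 (0.0674% to 7.33%). For T3 in TRB cells (4, 14.7%) the compared groups alone gave 1 (4.52%). No count filter (5.97%), DESeq2 (17.5%) and GC offsets on 11 libraries (55.1%) gave 5 each, and leaving out 1 library gave 2 to 5 (8.48% to 33.3%). For TRB against EV in vehicle (0, 0.0208%) the compared groups alone gave 2 (11.2%). Limma-voom (10.8%), GC offsets on 11 libraries (1.05%) and GC offsets on the compared groups alone (2.33%) gave 1 each. For TRB against EV with T3 (1, 6.68%) the counts were 2 without a count filter (2.19%), 2 with DESeq2 (12.2%), 3 with limma-voom (45.3%) and 0 with the compared groups alone (0.241%). They were 3 with GC offsets (20.2%), 4 with GC offsets and 11 libraries (40.1%) and 3 with the replicate block and GC offsets (19.6%). GC offsets and the compared groups alone gave 2 (6.76%), and leaving out 1 library gave 0 to 4 (2.79% to 19.7%). Between TRB with T3 and EV with vehicle (2, 10.6%) they were 5 without a count filter (3.92%), with DESeq2 (12.5%), with limma-voom (53.8%) and with GC offsets on 11 libraries (52.8%). The compared groups alone gave 0 (2.81%). They were 4 with the replicate block (10.7%), with GC offsets (31.5%), with both (30.2%) and with GC offsets on the compared groups alone (16.3%). Leaving out 1 library gave 1 to 5 (5.9% to 33.7%). For the difference of responses (0, 2.59%) they were 1 with DESeq2 (6.34%), 3 with limma-voom (44%) and 3 with GC offsets (11.4%). They were 4 with GC offsets and 11 libraries (33.2%), 3 with the replicate block and GC offsets (10.6%), and 0 to 3 leaving out 1 library (0.918% to 15.2%). DIO3 is among these where it was tested and passed, in settings with 6 or 8 members tested against 5 in the main fit. It was high only in TRB with T3. Counts that hold DIO3 therefore lend no support and cannot be set against those of 5 members. The causes were not tested.

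Of the fold changes of the 6 genes tested, 616 values kept direction and side of the threshold, 65 newly passed, 37 no longer passed and 34 changed sign; no value that changed sign passed under either setting. For SLC16A10 the values of changed sign were 0.095, 0.071, 0.12 and 0.078 for T3 in EV cells with GC offsets (12 libraries, 11 libraries, with the replicate block, compared groups alone). For T3 in TRB cells SLC16A10 was -0.20 with limma-voom, -0.50, -0.16, -0.52 and -0.49 in the same 4 GC fits, and -0.16 to 0.37 leaving out 1 library. For TRB against EV with T3 it was 0.046 with RLE, 0.025 with DESeq2, 0.023 with the compared groups alone, 0.012 with the replicate block and -0.27 to 0.25 leaving out 1 library. Between TRB with T3 and EV with vehicle it was -0.52 to 0.012 leaving out 1 library. For the difference of responses it was -0.60, -0.23 and -0.64 in the first 3 GC fits. Leaving out 1 library, SLC7A8 was at -0.0075 to 1.01 for T3 in EV cells and at -0.76 to 0.25 for TRB against EV in vehicle. The difference of responses for CRYM was 0.17 with limma-voom, 0.18, 0.40 and 0.17 in the first 3 GC fits, and -0.39 to 0.33 leaving out 1 library.

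Over all genes, calls for T3 in TRB cells numbered 2128 with 12 libraries, 4334 with GC offsets, 7797 with limma-voom, 634 with the compared groups alone and 1256 to 4938 leaving out 1 library. For T3 in EV cells 33 genes became 165 with DESeq2, 266 with GC offsets and 6424 with limma-voom. GC offsets moved the calls for TRB against EV with T3 from 596 higher and 368 lower to 1115 and 1334, those between TRB with T3 and EV with vehicle from 873 and 662 to 1482 and 2338, and those for the difference of responses from 255 and 119 to 727 and 661.

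Between TRB with T3 and EV with vehicle all 3 same-numbered pairs of libraries correlated over 0.1, and in no other pair of groups did all 3. Over all groups 12 of 18 same-numbered pairs and 9 of 36 other pairs did so, as a hint from the data. The highest, at 0.728, was between replicate 2 of TRB with T3 and replicate 2 of EV with T3. The replicate block changed no call other than those of SLC7A5 and SLC3A2 between TRB with T3 and EV with vehicle, and there the count went from 2 to 4. Depth limited DIO1 and DIO2, since 3 counts amount to 0.225 to 0.758 CPM in a library.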
